A study of Mus musculus with 72 samples.

Results

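The liver response to a ketogenic diet was examined at zeitgeber time 16 (ZT16, 16 h after lights on and 4 h into the dark phase, when mice feed). The comparison used 6 of the 72 arrays of the series, all those of liver labelled ZT16: 3 from mice on the ketogenic diet (replicates 5, 6 and 22) and 3 from mice on chow (replicates 7, 8 and 9). The other 30 liver arrays, 3 per diet at ZT0, ZT4, ZT8, ZT12 and ZT20, gave the diet differences against which ZT16 was set. All groups were male C57BL/6J mice, 8 weeks old at the start, kept under 12 h of light and 12 h of dark and given free access to either diet for 4 weeks. The protocol text shared by all samples also describes oral fructose (4 g/kg daily for 7 days) and, for some experiments, 30% sucrose in the drinking water, and it does not state whether these arrays had either. Nothing in the labels says that replicates are separate animals, so every p-value measures the spread between these samples.

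A ketogenic diet holds little carbohydrate and much fat, and the liver then burns fatty acids and exports ketone bodies. The receptor PPARA is activated by fatty acids and turns on genes of fatty acid oxidation. The factors SREBP1c and ChREBP are activated by insulin and by sugar, and they turn on glycolysis and the synthesis of fatty acids, which in a chow-fed mouse climbs with the nightly meal. The circadian clock sets the time of day at which many of these genes peak.

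Levels are given as log2(intensity + 16) of 1 probe set per gene, so a value of 4 stands for an intensity of 0 and fold changes of dim genes are understated. Differences are ketogenic minus chow on this log2 scale, and a gene is said to rise, fall or be called where limma's test over all 36 liver arrays gave a Benjamini-Hochberg adjusted p under 0.05. The ZT16 arrays had median intensities from 106.5 to 109.2 on chow and from 112.4 to 116.1 on the ketogenic diet. Both lay within the range of all liver arrays (105.0 to 119.5), but they did not overlap between diets. Chow ZT8 replicate 12 and chow ZT12 replicate 17 stood apart in clock genes, with levels of Nr1d1 and Dbp near those of each other's time. Nr1d1 read 10.18 on the former, against 11.74 and 11.82 on the other chow ZT8 arrays, and 11.72 on the latter, against 10.01 and 10.28. Ciart, another clock gene, did not set them apart (10.38 on both, within the range of the other arrays). These arrays enter the comparisons with other times but not the ZT16 difference itself, and the number of genes called at ZT16 was 1688 without them.

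At ZT16 the diet changed 1563 of 12463 tested genes (12.5%). Of these, 607 were higher on the ketogenic diet (4.87%) and 956 were lower (7.67%). The median change among them was 1.27-fold, and 281 changed at least 1.5-fold (2.25%; 131 higher, 1.05%, and 150 lower, 1.20%). The corresponding counts at the other time points were 669 at ZT0 (5.37%), 530 at ZT4 (4.25%), 992 at ZT8 (7.96%), 768 at ZT12 (6.16%) and 2621 at ZT20 (21.0%). The median difference over all tested genes was -0.035. Centring each array on its own median moved it by -0.072, and the split then became 336 higher and 1616 lower. Leaving out ketogenic replicate 5 brought the number of calls to 813, chow replicate 8 to 916, ketogenic replicate 22 to 937 and chow replicate 7 to 1040.

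The 12 largest falls were, in order of size, Tff3, Hamp2, Pnpla3, Rgs16, Chrna4, Fabp5, Lepr, Lpin1, Elovl6, Acacb, Scd1 and Cyp17a1. Tff3, a secreted trefoil peptide, read 10.36, 11.21 and 10.02 on chow and 7.57, 6.46 and 6.37 on the ketogenic diet, a fall of 13.3-fold (log2 difference -3.73 ± 0.39 SE, n = 3 per diet, adjusted p = 2.5e-07). Every ketogenic array lay far below the lowest chow array. Pnpla3, a lipid droplet hydrolase gene switched on by carbohydrate feeding, read 10.10, 10.78 and 10.06 on chow and 7.33, 7.14 and 7.18 on the ketogenic diet (8.54-fold, adjusted p = 1.2e-06). The 3 ketogenic arrays were almost level, as they were for the acetylcholine receptor subunit gene Chrna4 (9.24, 8.92 and 9.23 on chow against 6.62, 6.75 and 6.81). Lepr, the leptin receptor gene, fell 4.86-fold, from 8.48, 7.88 and 9.45 to 6.59, 6.37 and 6.01, with a wider spread among the chow arrays. Fabp5, a fatty acid binding protein gene, fell 5.24-fold and Cyp17a1, a steroid hydroxylase gene, fell 3.93-fold. Hamp2, a hepcidin gene, read 11.82, 11.05 and 11.47 on chow and 7.45, 7.38 and 10.05 on the ketogenic diet. Ketogenic replicate 22 lay between its fellows and the chow arrays, and the fall of 8.91-fold was not called without ketogenic replicate 5 (adjusted p = 0.0653) or replicate 6 (adjusted p = 0.056).

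The 12 largest rises were, in order of size, Cyp2b9, Cyp4a14, Cidec, Rsad2, H2ac1, Cfd, Slc16a5, Cyp4a31, Egr1, Ifit1, Acot1 and Mx2. Cyp2b9, a P450 in the list of growth hormone and sex-biased genes, read 5.30, 4.90 and 5.75 on chow, close to the floor of the scale. On the ketogenic diet it read 9.41, 9.88 and 7.80 (13.1-fold, 3.71 ± 0.98, adjusted p = 0.0129). The difference was 5th in size of the 6 time points. Cyp4a14, a fatty acid hydroxylase and PPARA target, read 9.91, 9.80 and 11.98 on chow and 13.26, 13.15 and 13.04 on the ketogenic diet (6.00-fold, adjusted p = 0.00956). The ketogenic arrays were tight and chow replicate 9 stood well above the other chow arrays. Cidec, a lipid droplet protein gene, read 7.67, 6.26 and 7.87 on chow and 9.67, 9.59 and 10.25 on the ketogenic diet (5.95-fold, adjusted p = 0.00058). H2ac1, a histone H2A gene, read 8.23, 8.09 and 8.08 on chow and 10.10, 9.77 and 10.03 on the ketogenic diet (3.56-fold, adjusted p = 0.0147). Slc16a5, a monocarboxylate transporter gene, rose 3.11-fold, Cyp4a31 3.04-fold and the acyl-CoA thioesterase gene Acot1 2.77-fold. Of these 12 rises, Cidec, Rsad2, Ifit1 and Mx2 were called whichever ZT16 array was left out. Without chow replicate 8 the adjusted p was 0.0599 for Cyp4a14, 0.0783 for Cyp4a31, 0.0852 for Slc16a5, 0.122 for Acot1 and 0.0501 for Cyp2b9, and without ketogenic replicate 5 it was 0.0537 for H2ac1.

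**Figure D1:**
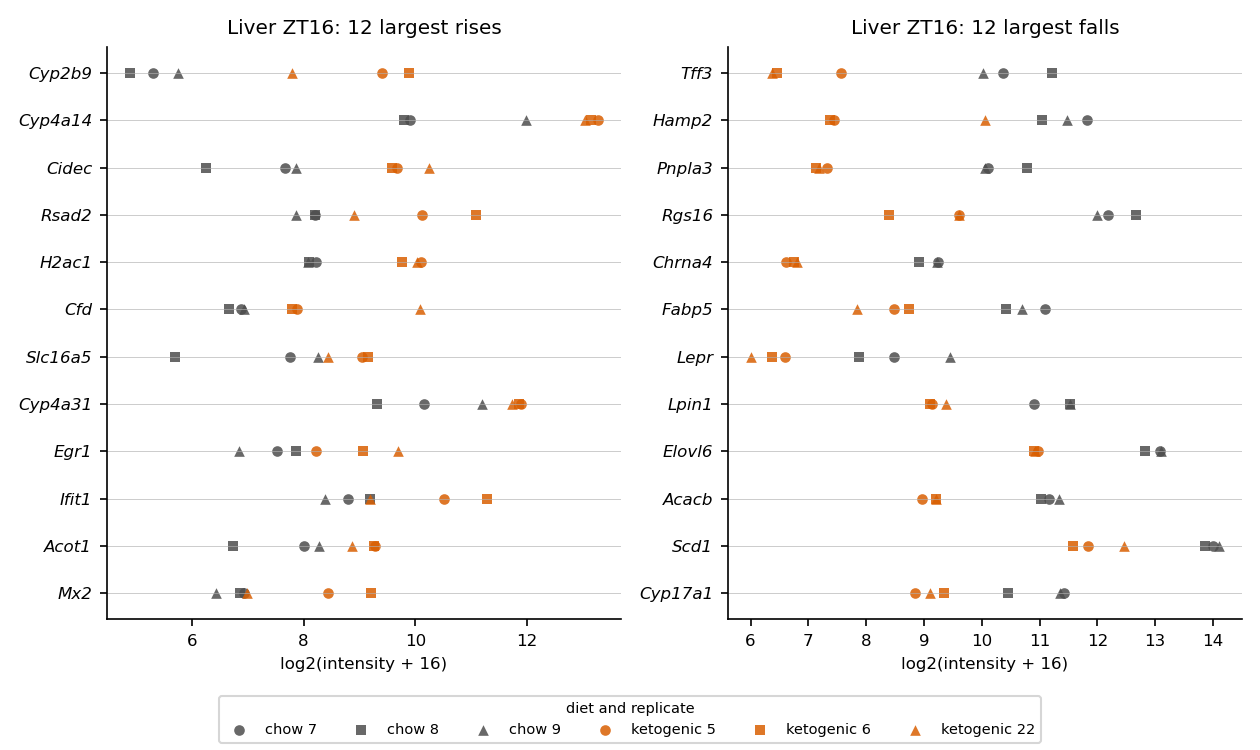
Liver levels at ZT16 of the 12 largest rises (left) and the 12 largest falls (right) among called genes; the x axis is log2(intensity + 16), each point is 1 array, grey for chow and orange for the ketogenic diet, with a symbol for each replicate. The genes were picked as the largest called differences, so a gap between the diets is largely given by the choice. Ifit1 overlaps between ketogenic replicate 22 and chow replicate 8, and Cyp4a14 has chow replicate 9 at 11.98 against 9.80 and 9.91.

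Genes of de novo lipogenesis, the pathway that turns glucose-derived acetyl-CoA into fatty acids, fell together. Of the 24 tested members 18 fell and none rose, and the median difference was -1.16, against -0.035 for all genes. The first step, citrate cleavage, is made by Acly, which read 12.49, 12.40 and 12.49 on chow and 10.55, 10.43 and 10.65 on the ketogenic diet (3.78-fold lower, adjusted p = 8.9e-06). The acetyl-CoA carboxylase gene Acaca read 11.68, 11.70 and 11.91 on chow and 9.84, 9.81 and 10.02 on the ketogenic diet (3.67-fold lower, adjusted p = 2.3e-08), and its mitochondrial partner Acacb fell 4.14-fold. In each of these 3 genes the diets were separated by far more than the spread within either. Fatty acid synthase (Fasn) read 13.17, 13.12 and 13.08 on chow and 11.17, 11.22 and 11.72 on the ketogenic diet (3.38-fold lower, adjusted p = 4.2e-06). The elongase gene Elovl6 read 13.08, 12.82 and 13.10 on chow and 10.97, 10.91 and 10.92 on the ketogenic diet (4.19-fold lower, -2.07 ± 0.17, adjusted p = 2.5e-09). The desaturase gene Scd1 fell 4.07-fold, from 14.01, 13.86 and 14.10 to 11.84, 11.58 and 12.47. Ketogenic replicate 22 was the least lowered of the 3 for Fasn and Scd1, and over the whole list its mean log2 level was 10.72, against 10.49 on each of the other ketogenic arrays and 11.69 to 11.80 on chow.

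Suppliers and regulators of the pathway followed. The NADPH-producing enzymes fell, G6pdx 2.61-fold, Pgd 2.19-fold and Me1 2.27-fold, and so did liver pyruvate kinase (Pklr, 3.80-fold), the exit enzyme of glycolysis. Srebf1, which encodes SREBP1c, read 10.99, 11.11 and 10.68 on chow and 9.61, 9.84 and 10.27 on the ketogenic diet (2.03-fold lower, adjusted p = 0.00208). Mlxipl, which encodes ChREBP, fell less (1.34-fold, adjusted p = 0.0073; 0.0525 without ketogenic replicate 5). Thrsp and Mid1ip1, whose products activate lipogenic enzymes, fell 3.49-fold and 2.16-fold, and Gpam, the first enzyme of glycerolipid synthesis, fell 1.77-fold (adjusted p = 0.0141, or 0.0647 without chow replicate 7 and 0.066 without ketogenic replicate 5). The members that were not called were the polyunsaturated fatty acid genes Fads1, Fads2, Elovl2 and Elovl5, the citrate carrier gene Slc25a1 and Acss2. Their differences ran from -0.64 for Acss2 to 0.09 for Fads2. Between 15 and 18 members fell whichever array was left out.

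Several genes of sugar use fell too, among them Pklr, which is also in the lipogenesis list. In the list of glycolysis and fructose use, 12 of 27 tested genes fell and 1 rose, with a median of -0.21. The gene that rose, named after its values were seen, was the pyruvate kinase gene Pkm (0.38). Ketohexokinase (Khk), the first enzyme of fructose breakdown, read 12.16, 12.20 and 12.18 on chow and 11.05, 10.98 and 11.11 on the ketogenic diet (2.20-fold lower, adjusted p = 2.5e-09). The gap between the diets was many times the spread within either. Glucose phosphate isomerase (Gpi1) fell 1.61-fold. In the list of gluconeogenesis and glycogen 5 of 22 fell and 1 rose. Those that fell were the glycogen phosphorylase gene Pygl (1.69-fold), the glucose 6-phosphate transporter gene Slc37a4 (1.51-fold), Ugp2 of glycogen synthesis (1.35-fold) and, named after their values were seen, the branching enzyme gene Gbe1 (-0.56) and the glycogen regulator gene Ppp1r3b (-0.82). Pck1, the gluconeogenic phosphoenolpyruvate carboxykinase gene and also named after its value was seen, rose by 1.16.

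Genes of fatty acid oxidation and other PPARA targets rose. Of 40 tested members 30 rose and none fell, with a median of 0.50, and all 40 differences were above 0. The uncoupling protein gene Ucp2 read 9.80, 9.45 and 9.82 on chow and 10.98, 10.75 and 10.77 on the ketogenic diet (2.21-fold, adjusted p = 1.3e-05). The carnitine transporter gene Slc22a5 read 9.23, 8.66 and 9.15 on chow and 10.30, 10.38 and 9.89 on the ketogenic diet (2.25-fold, adjusted p = 0.00015). The peroxisomal thiolase gene Acaa1a rose 1.68-fold. Chow replicate 8 was the lowest array for these 3 genes and for the list, whose mean log2 level was 10.39 there, 10.92 and 11.06 on the other chow arrays, and 11.38 to 11.57 on the ketogenic diet. Over the 15 chow arrays of the other times the list's mean level ran from 10.64 to 11.31, all above chow replicate 8. Without it 18 of the 40 members rose. Of the 11 tested genes of ketone bodies and monocarboxylate carriers 4 rose, among them Slc16a5, the mitochondrial thiolase gene Acat1 (1.34-fold) and the 3-hydroxybutyrate dehydrogenase gene Bdh1 (1.51-fold).

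**Figure D2:**
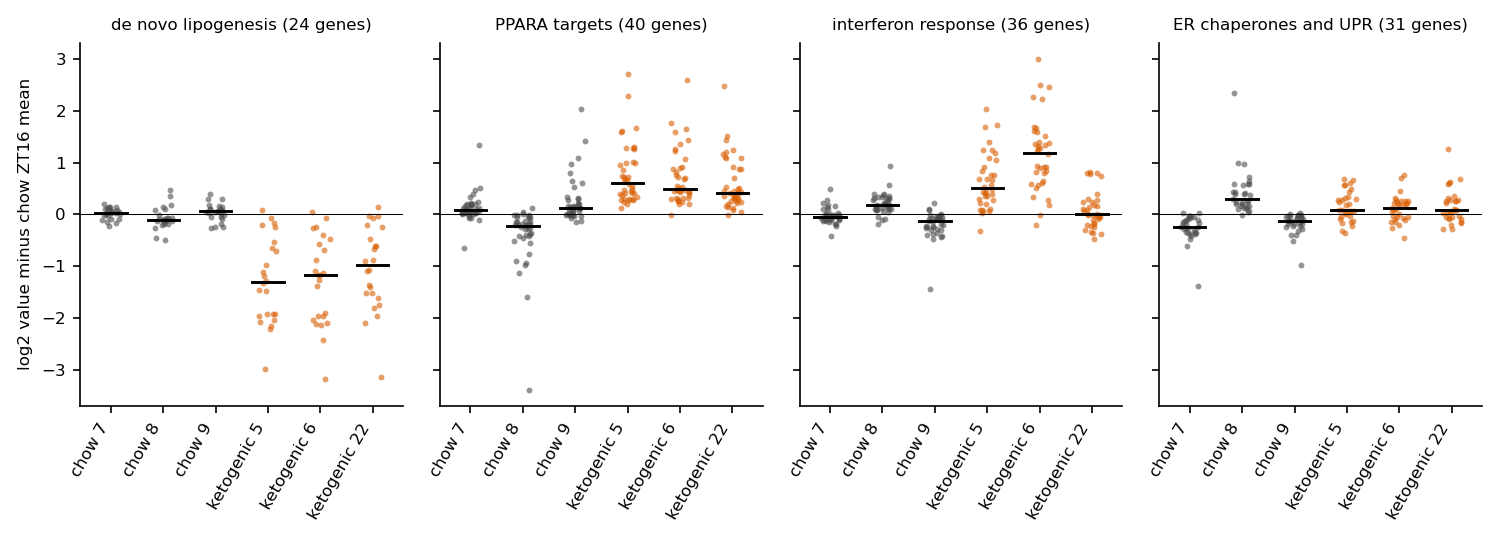
Each tested gene of 4 lists on each of the 6 liver ZT16 arrays, as the log2 value minus that gene's mean over the 3 chow arrays (y axis, log2 units); points are genes and bars are medians over the list. Lipogenesis genes lie lower on all 3 ketogenic arrays, PPARA targets are lowest on chow 8, interferon genes are highest on ketogenic 6 and near chow on ketogenic 22, and ER chaperone genes are highest on chow 8.

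Detoxification and amino acid genes moved upwards as well. In the list of drug and xenobiotic metabolism 17 of 37 tested genes rose and none fell (median 0.25). Cyp2c50, a P450 epoxygenase, read 11.67, 11.66 and 11.73 on chow and 12.51, 12.40 and 12.37 on the ketogenic diet (1.67-fold, adjusted p = 1.6e-05). Its relatives Cyp2c54 and Cyp2c37 rose 1.70-fold and 1.68-fold. The Cyp2c genes are near-identical copies, and their probe sets may share signal. Of the 5 lists counted under other scalings, this one changed by over 1.5 times: 9 rose after median centring, and the number was 8 without ketogenic replicate 5, 9 without chow replicate 9 and 11 without chow replicate 7 or ketogenic replicate 22. Of 39 genes of amino acid catabolism and the urea cycle 11 rose and none fell. They included the isovaleryl-CoA dehydrogenase gene Ivd (1.69-fold, adjusted p = 1.8e-06), the methylmalonate semialdehyde dehydrogenase gene Aldh6a1 (1.29-fold) and tryptophan dioxygenase (Tdo2, 1.39-fold). None of the 19 tested targets of the amino acid response factor ATF4 was called, and the smallest adjusted p among them was 0.14, for Gdf15.

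Lipid carriers and bile transporters changed in both directions. In the list of lipid uptake, storage and export 6 of 33 rose and 5 fell. The 5 were Fabp5, Tm6sf2 and, named after their values were seen, the lipid droplet genes Plin3 (-0.60) and Abhd5 (-0.39) and the lipoprotein assembly gene Mttp (-0.27). Tm6sf2, which is needed for loading lipid onto very low density lipoprotein, read 11.60, 11.33 and 11.65 on chow and 10.70, 10.61 and 10.72 on the ketogenic diet (1.80-fold lower, adjusted p = 9.8e-09). Among 19 bile acid genes 2 rose (10.5%) and 1 fell (5.26%), not far from the shares of all tested genes (4.87% and 7.67%). The canalicular phospholipid transporter gene Abcb4 rose 1.39-fold and the basolateral export pump gene Abcc3 2.21-fold, while Klb, the FGF coreceptor gene, fell 1.37-fold. Klb was not called without chow replicate 7 or 9 or ketogenic replicate 5 or 6 (adjusted p from 0.0523 to 0.0924). Of 26 genes of cholesterol synthesis and uptake 2 rose (7.69%, against 4.87% of all tested genes), Mvk (1.55-fold) and Msmo1 (1.89-fold). The list's median was 0.09 at ZT16, near those at ZT12 (0.16) and ZT20 (0.07). At ZT0, ZT4 and ZT8 it was 0.38, 0.76 and 0.28. Msmo1 was called with all arrays, but adjusted p lay between 0.08 and 0.124 when any of 5 ZT16 arrays was left out, and Mvk was lost without chow replicate 8, chow replicate 9 or ketogenic replicate 6 (0.057 to 0.0817).

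Interferon-induced genes were raised on some of the ketogenic arrays. Interferon binding to its receptors activates a transcription factor complex that contains STAT2 and IRF9 and binds a DNA element, the ISRE, in the promoters of antiviral genes. Of 36 tested members 14 rose and none fell, with a median of 0.61. Rsad2, the antiviral enzyme viperin, read 8.20, 8.20 and 7.86 on chow and 10.11, 11.08 and 8.91 on the ketogenic diet (3.84-fold, 1.94 ± 0.33, adjusted p = 0.00027). Ifit1, an RNA-binding antiviral protein gene, read 8.80, 9.19 and 8.38 on chow and 10.51, 11.28 and 9.18 on the ketogenic diet (2.90-fold, adjusted p = 0.00285). Mx2, a GTPase gene, read 6.93, 6.87 and 6.44 on chow and 8.44, 9.20 and 6.99 on the ketogenic diet (2.76-fold, adjusted p = 0.00264). In each gene the order was ketogenic replicate 6, then 5, then 22. Replicate 22 was clear of the chow arrays for Rsad2, just above them for Mx2 and just below chow replicate 8 for Ifit1. Irf7, an interferon-induced transcription factor gene, was more even, at 9.32, 9.93 and 9.36 on chow and 10.30, 10.70 and 10.27 on the ketogenic diet (1.85-fold, adjusted p = 5.5e-05). Cmpk2 and Usp18 rose 2.46-fold and 2.41-fold, and Tor3a and Ifi27 rose 2.27-fold and 1.53-fold.

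The array pattern held over the whole interferon list. Its mean log2 level was 9.19, 9.71 and 8.63 on ketogenic replicates 5, 6 and 22, against 8.53, 8.76 and 8.36 on chow replicates 7, 8 and 9. Without ketogenic replicate 22 the number of members that rose was 25, without ketogenic replicate 6 or without chow replicate 9 it was 8, and without ketogenic replicate 5 it was 9. In a fit on the 6 ZT16 arrays alone it was 4. Members not called with all arrays but called without replicate 22 included Ifi44 (adjusted p = 0.00469), Ifit2 (0.00175), Irf9 (0.00369), Parp14 (0.00515) and Zbp1 (0.00798). Stat2 gave a difference of 0.12 (adjusted p = 0.414). The 13 tested macrophage and Kupffer cell markers followed the same order, with a mean log2 level of 9.22, 9.39 and 8.84 on ketogenic replicates 5, 6 and 22 and 8.90, 9.07 and 8.75 on chow, and none of them was called. Their part in the interferon result was not tested.

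The promoters of 24 of the 36 tested interferon genes were in the RefSeq table (build GRCm38.p6), and 9 of them (37.5%) held the ISRE letters (GAAA, any 2 bases, GAAA) on either strand in the 250 bases before the start. Over all tested genes with a promoter the share was 298 of 9779 (3.05%). Of the 7 called interferon genes with a promoter 4 held the letters: Rsad2, Ifit1, Ifit3 and Ddx60. The stretch around the match is shown for 3 of them, 5′ to 3′ on the gene's strand with the match in capitals, because they span the largest and the smallest rises of the 4. A match is a description of the letters and no evidence of binding. They lie at chr12:26456533-26456602 (minus strand), chr19:34640755-34640824 (plus strand) and chr8:61928004-61928073 (plus strand).
Rsad2: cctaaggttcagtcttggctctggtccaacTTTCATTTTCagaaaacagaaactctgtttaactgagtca
Ifit1: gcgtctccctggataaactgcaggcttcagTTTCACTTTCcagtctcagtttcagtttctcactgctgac
Ddx60: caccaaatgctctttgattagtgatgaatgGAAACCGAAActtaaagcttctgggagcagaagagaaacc
Rsad2 and Ifit1 carry the reverse complement form, and Ifit1 and Ddx60 have another match nearby. The 3 rises were 3.84-fold, 2.90-fold and 1.67-fold (Ddx60 adjusted p = 0.0198, or 0.157 without ketogenic replicate 6, 0.055 without chow replicate 7 and 0.057 without chow replicate 9).

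Clock genes were little changed at ZT16. Of the 20 tested core clock genes 1 was called (5.00%, against 12.5% of all tested genes). This gene, Bhlhe40, a repressor in the clock's feedback loop, read 10.35, 11.38 and 10.50 on chow and 9.69, 9.90 and 9.79 on the ketogenic diet (1.94-fold lower, adjusted p = 0.00567). The diets did not overlap, but chow replicate 8 was the highest, and without it adjusted p was 0.0697. Npas2 came next, with a difference of -0.93 (adjusted p = 0.0917). Of 30 genes of clock output none rose and 4 fell (13.3%, against 7.67% of all tested genes): Rgs16, Avpr1a, Tars and Dtx4. Rgs16, a brake on G protein signalling whose liver level follows feeding, read 12.19, 12.67 and 12.00 on chow and 9.61, 8.39 and 9.60 on the ketogenic diet (8.47-fold lower, -3.08 ± 0.56, adjusted p = 0.00058). The vasopressin receptor gene Avpr1a fell 1.66-fold. Dtx4 fell 1.45-fold but was not called when any 1 of 4 ZT16 arrays was left out (0.0504 to 0.116), and Tars fell 1.34-fold, with an adjusted p of 0.0509 without chow replicate 8.

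Single genes of the remaining lists are given next. Egr1, an immediate early transcription factor gene, read 7.53, 7.86 and 6.85 on chow and 8.23, 9.07 and 9.69 on the ketogenic diet (2.99-fold, adjusted p = 0.0358). It was called at no other time, and at ZT16 it was lost when any of 4 arrays was left out (0.0684 to 0.17). Igfbp2, an insulin-like growth factor binding protein gene, rose 1.57-fold, and the autophagy kinase gene Ulk1 fell 1.68-fold (10.51, 10.65 and 10.37 on chow against 9.77, 9.75 and 9.77). Of 9 tested cell cycle genes 3 fell and none rose. Of those that fell, Pcna lost its call without any of 4 ZT16 arrays and Mcm2 without any of 5. Rrm2, the ribonucleotide reductase subunit gene, fell 3.83-fold, from 8.72, 9.10 and 8.55 to 6.87, 6.79 and 6.89. Ulk1 and Rrm2 showed clear gaps between the diets. Among acute phase genes Saa4 rose 1.43-fold and Apcs fell 2.01-fold. Of 20 tested NRF2 and antioxidant genes 5 rose and 4 fell, and 3 of those that fell, Me1, G6pdx and Pgd, are also in the lipogenesis list. The antioxidant enzyme gene Gpx1 rose 1.31-fold. Of 61 tested genes of the citric acid cycle and respiratory chain 3 rose (4.92%) and 2 fell (3.28%), against 4.87% and 7.67% of all tested genes. The citric acid cycle genes Suclg1 and Idh2 rose 1.37-fold and 1.42-fold. In the fasting regulator list 2 of 19 rose (10.5%) and 3 fell (15.8%). Creb3l3 rose 1.25-fold (adjusted p = 0.0673 after median centring). Lpin1 fell 4.32-fold and Ppard 1.61-fold, and Ppard lost its call without any of 4 ZT16 arrays (0.0884 to 0.134).

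Calls among cell type markers were few outside the adipocyte list. The summed intensity of 12 hepatocyte markers ran from 113714 to 118922 on chow and from 119069 to 123024 on the ketogenic diet, and none of them was called. None of the tested endothelial, stellate, dendritic, cholangiocyte or neutrophil markers was called either. Only 3 of 9 cholangiocyte markers and 1 of 12 neutrophil markers on the array were tested, so these 2 types were hardly examined. Summed over all markers on the array, neutrophil intensity was 576 to 628 on chow and 668 to 748 on the ketogenic diet. Cholangiocyte intensity was 1582 to 1883 on chow and 1183 to 1616 on the ketogenic diet. Of 5 tested T, B and NK cell markers 1 rose (Ighm, 0.35), and of 4 tested pancreatic acinar markers 1 rose (Prss2, 0.53); both were named after their values were seen. In whole liver, fewer cells of a type and less RNA per cell cannot be told apart. Of 7 tested adipocyte markers 4 were called, Cidec, Cfd and Car3 (0.18, named after its value was seen) higher and Pnpla3 lower, while the fat cell hormone gene Adipoq had an intensity of 32.8 to 55.5 on all 6 arrays. Cfd, the adipsin gene, read 6.89, 6.66 and 6.93 on chow and 7.88, 7.80 and 10.09 on the ketogenic diet. Cfd was also called higher at the 5 other time points, by 2.16 to 3.71, and the ZT16 difference was the smallest of the 6. At ZT16 it rose 3.41-fold (adjusted p = 0.0315). This call was lost without any 1 chow array (0.0583 to 0.0919), and without ketogenic replicate 22 the difference was 1.02 (adjusted p = 0.25). The same array was the highest for pancreatic acinar markers, with a summed intensity of 1915 at the top of the ketogenic range (1009 to 1915) against 854 to 935 on chow, and with Ctrb1, a chymotrypsinogen gene, at 453 against 66.2 to 101. The part of these cells in its other values was not tested.

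The diet difference at ZT16 was then set against the mean difference of the other 5 time points. By this contrast 0 of 12463 genes were called, the smallest adjusted p being 0.138, and 891 genes (7.15%) had an unadjusted p under 0.05. The same contrast for each other time point called 0 genes at ZT0, ZT4 and ZT8, 33 at ZT12 (0.265%) and 32 at ZT20 (0.257%). At the 3 times with no call, unadjusted p was under 0.05 in 830 genes at ZT0 (6.66%), 494 at ZT4 (3.96%) and 1155 at ZT8 (9.27%). The median 95% interval of the ZT16 contrast reached 1.16-fold to either side of the estimate. Of the 1563 genes called at ZT16, 1243 (9.97% of all tested genes) were also called with the same sign for the mean of the other 5, which called 4929 genes in all (39.5%). A further 319 (2.56%) were not called for that mean, and 1 (0.00802%), Vangl1, was called with the opposite sign.

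**Figure D3:**
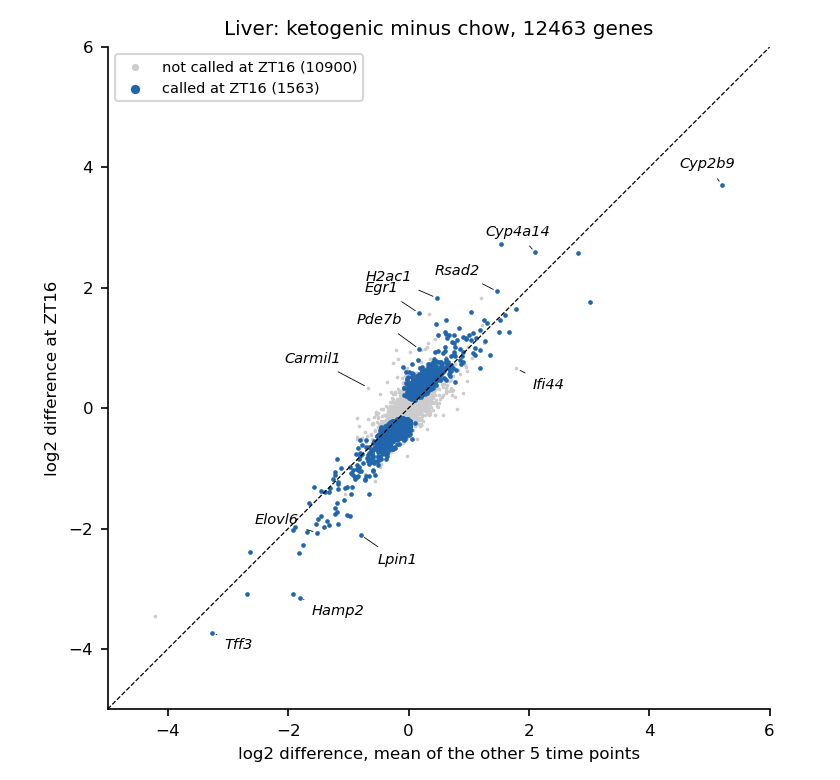
The diet difference at ZT16 (y axis, log2, ketogenic minus chow) against the mean difference of the other 5 liver time points (x axis, log2) for all 12463 tested genes, with the 1563 called at ZT16 in blue; the dashed line marks equal differences. Points follow the line; Pde7b, Egr1, H2ac1 and Carmil1 lie above it and Lpin1 and Ifi44 below, and none of the genes departed from it at an adjusted p under 0.05.

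Among genes called at ZT16, the differences most often had the same sign as those at ZT20, the next night time point. Of the 1563 genes, 98.3% had the same sign at ZT20, 91.8% at ZT12, 86.4% at ZT0, 87.8% at ZT4 and 86.1% at ZT8, and 68.7% had it at all 5. The same shares over all tested genes were not counted. ZT20 also had the most calls (21.0% of tested genes). Its median size of difference over all tested genes was the largest, 0.158, against 0.132 at ZT16 and 0.092 to 0.108 at the other times. The 983 genes called at both ZT16 and ZT20 were 62.9% of the ZT16 calls and 37.5% of the ZT20 calls. For ZT12 the 501 shared calls were 32.1% and 65.2%, and for ZT4 the 299 shared calls were 19.1% and 56.4%. A set of 139 genes (1.12%) was called at all 6 time points with 1 sign, among them Tff3, Pnpla3, Elovl6, Khk, Ucp2 and Ivd. At the other end 460 genes (3.69%) were called at ZT16 and at no other single time point, which does not show that they differ between times. Among the named genes these were Egr1, Dnajb9, Pdia3, Mup1, Mup2, Ndufb3, Bmp6, Nhp2, Polr1a, Psmb7 and Mcm2. Except Ndufb3, a respiratory chain subunit gene (1.35-fold higher), each lost its call when at least 3 of the 6 ZT16 arrays were left out in turn.

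Gene lists differed in how their median moved through the day. Lipogenesis stood at -0.65 at ZT0, -0.31 at ZT4, -0.58 at ZT8, -1.10 at ZT12, -1.16 at ZT16 and -1.16 at ZT20. For 8 of its 24 genes the difference was the largest of the day at ZT16. Against the other times 6 had an unadjusted p under 0.05 (7.15% of all tested genes did), all in the direction of a deeper fall. The smallest adjusted p among them was 0.547, so no member was shown to fall more at ZT16. The interferon median was 0.94 at ZT0, 0.61 at ZT4, 0.23 at ZT8, 0.00 at ZT12, 0.61 at ZT16 and 1.32 at ZT20, and the number of members that rose was 26, 19, 6, 3, 14 and 30 in that order. The share of all genes that rose was 2.27% at ZT0, 1.48% at ZT4, 3.39% at ZT8, 2.70% at ZT12 and 7.19% at ZT20. The PPARA list was flatter, from 0.32 at ZT4 to 0.50 at ZT16.

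**Figure D4:**
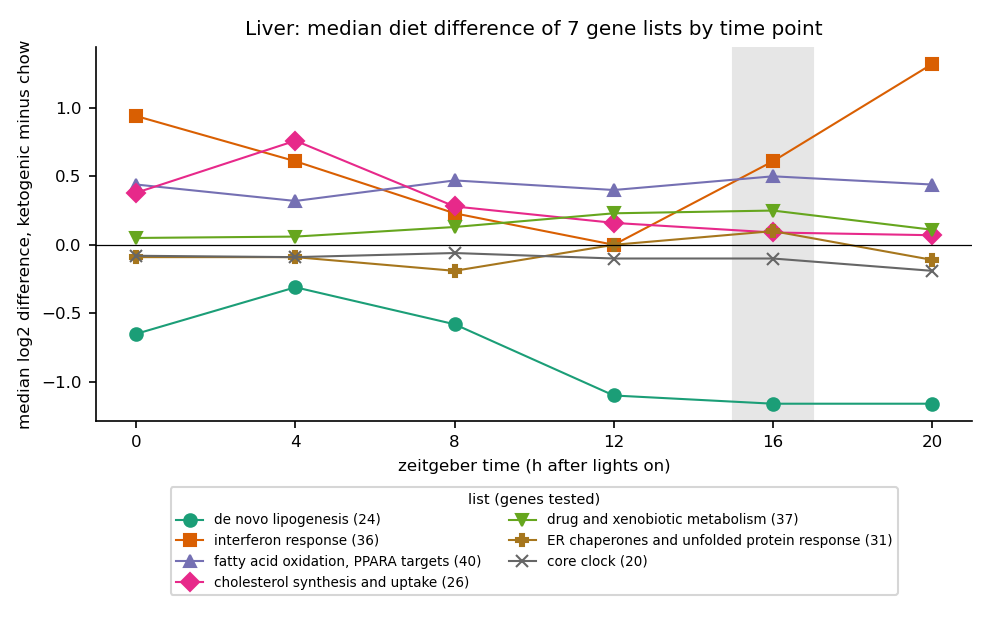
Median log2 difference (y axis, ketogenic minus chow) of the tested genes of 7 lists at each liver time point (x axis, zeitgeber time in h; ZT16 shaded). Lipogenesis is lowest from ZT12 to ZT20, the interferon median climbs from 0.00 at ZT12 through 0.61 at ZT16 to 1.32 at ZT20, and the core clock median stays between -0.19 and -0.06.

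The genes with the smallest unadjusted p in this contrast are described next; they were picked after their values were seen, and none passed the adjustment. Pde7b, a phosphodiesterase gene that degrades cyclic AMP, read 8.31, 7.94 and 8.30 on chow and 9.19, 9.21 and 9.10 on the ketogenic diet at ZT16, a rise of 1.98-fold (adjusted p = 2.2e-05). Its difference was between 0.00 and 0.21 at ZT0, ZT4, ZT8 and ZT12 and 0.51 at ZT20, so that ZT16 exceeded the rest by 0.80 ± 0.15 (adjusted p = 0.138). On the ketogenic diet its ZT16 level was above that of the other times by 0.68 ± 0.11 (adjusted p = 6.3e-04), and on chow the same difference was -0.12 (adjusted p = 0.653). The contrast passed the threshold when ketogenic ZT4 replicate 4 (0.021) or ketogenic ZT20 replicate 28 (0.0157) was left out. Carmil1, a regulator of actin capping, had differences of -0.31 to -0.98 at the other times and 0.34 at ZT16, a gap of 1.01 ± 0.21 (adjusted p = 0.142). Chow Carmil1 was lower at ZT16 than at other times by 0.69 ± 0.15 (adjusted p = 0.0183), and ketogenic replicate 6, at 9.47, stood above the other ketogenic arrays (8.81 and 8.87). Ifi44 differed by 0.66 at ZT16 (adjusted p = 0.0629) and by 0.79 to 2.38 at the other times, a gap of -1.13 ± 0.26 (adjusted p = 0.3, and 0.0226 without ketogenic replicate 6). Elane, the neutrophil elastase gene, differed by 0.25 to 0.97 at the other times and by -0.12 at ZT16 (adjusted p = 0.3), and Pacs2 showed a gap of -0.28 ± 0.06 (adjusted p = 0.3).

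Among the large falls Lpin1, a phosphatidate phosphatase of glycerolipid synthesis, had the smallest unadjusted p in this contrast. It read 10.91, 11.53 and 11.52 on chow and 9.14, 9.10 and 9.39 on the ketogenic diet at ZT16 (4.32-fold lower, adjusted p = 0.00025). At ZT12 the group means had been 11.97 on chow and 11.84 on the ketogenic diet. The chow ZT12 mean includes replicate 17, which stood apart in clock genes and read 11.27, against 12.14 and 12.50 on the other arrays. The ketogenic ZT12 arrays read 11.10, 12.29 and 12.13. The difference was -0.13 at ZT12, -2.11 at ZT16 and -1.76 at ZT20, and ZT16 departed from the other times by -1.32 (unadjusted p = 0.00206, adjusted p = 0.499). Elovl6 departed by -0.55 (adjusted p = 0.547), with a chow level at ZT16 0.49 ± 0.13 above the other times (adjusted p = 0.0559) and a ketogenic level 0.06 below (adjusted p = 0.836). Acaca, Acly and Fasn departed by -0.53, -0.75 and -0.53 (adjusted p = 0.561, 0.566 and 0.675).

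**Figure D5:**
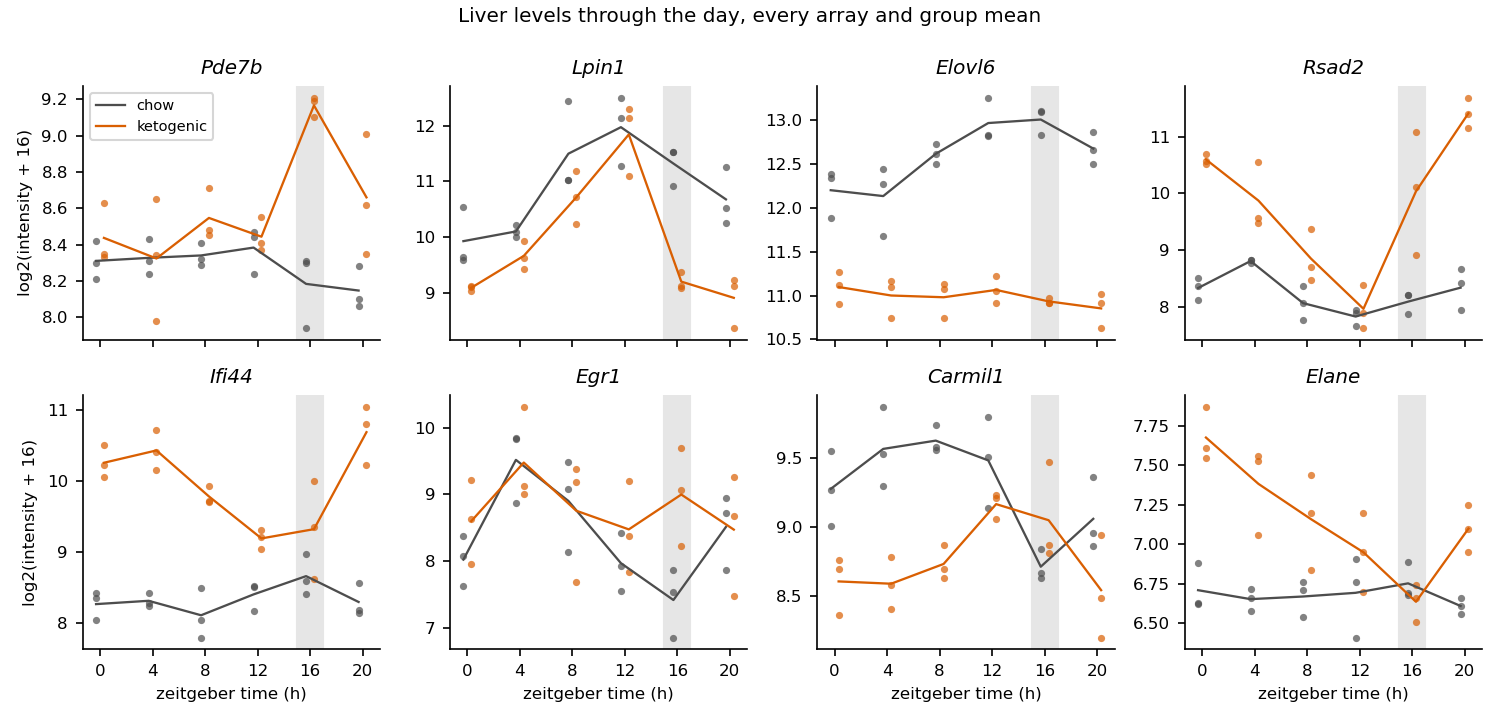
Liver levels of 8 genes at the 6 time points, as log2(intensity + 16) (y axis) against zeitgeber time in h (x axis); points are single arrays, lines join group means, grey is chow, orange is the ketogenic diet and ZT16 is shaded. Ketogenic Pde7b peaks at ZT16 and Elovl6 is apart at every time. The Lpin1 group means are close at ZT12, where the arrays are spread, and apart at ZT16. The ketogenic mean of Elane is above chow at every time but ZT16.

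Against single time points ZT16 differed in few genes: 1 against ZT4 (0.00802%), 2 against ZT8 (0.0160%) and 1 against ZT20 (0.00802%). At those times 1028 (8.25%), 1317 (10.6%) and 423 (3.39%) genes had an unadjusted p under 0.05. The 3 genes described here were named after their values were seen. Vangl1, a planar cell polarity gene, fell 1.18-fold at ZT16 (7.71, 7.84 and 7.85 against 7.53, 7.50 and 7.65) and was raised by 0.28 at ZT8 (gap -0.52, adjusted p = 0.0184). Ces1d, a carboxylesterase gene, rose 1.16-fold at ZT16 and was lower by 0.36 at ZT4 (gap 0.58, adjusted p = 0.0456). Trim30a, an interferon-induced gene, differed by 0.28 at ZT16 and by 1.66 at ZT20 (gap -1.38, adjusted p = 0.0262). No gene was called against ZT0 or ZT12, where 1117 (8.96%) and 858 (6.88%) genes had an unadjusted p under 0.05. The ZT16 fall of Vangl1 was itself not called without chow replicate 8 or 9 or ketogenic replicate 5 or 6 (adjusted p from 0.0519 to 0.0586).

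A group of endoplasmic reticulum chaperone genes, which fold secreted proteins, turned on chow replicate 8. Of 31 tested members 2 rose at ZT16 (6.45%; Dnajb9, 1.32-fold, and Pdia3, 1.27-fold) and 1 fell (3.23%; Derl2, 1.25-fold). Over all tested genes 4.87% rose and 7.67% fell. Each of the calls among the members was lost when any of at least 4 ZT16 arrays was left out. The median difference was 0.10 at ZT16 and between -0.19 and 0.00 at the other times. In the contrast with the other times 9 members had an unadjusted p under 0.05 (7.15% of all tested genes did), all towards a higher difference at ZT16. The mean log2 level of the list was 11.07 on chow replicate 8, against 10.40 and 10.48 on the other chow arrays and 10.77 to 10.82 on the ketogenic arrays. It ran from 10.18 to 10.80 over the 30 arrays of the other times. Without chow replicate 8 the contrast called 4 genes, all chaperone or folding genes with a higher difference at ZT16, named after their values were seen: Creld2 (1.22, adjusted p = 0.0231), Hspa5 (0.57, 0.0335), Pdia3 (0.54, 0.0335) and Hsp90b1 (0.50, 0.0335). With all arrays their values were 0.72, 0.36, 0.35 and 0.30 (adjusted p = 0.579, 0.561, 0.559 and 0.587).

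Major urinary proteins and P450 genes gave the other groups of small departures. Of 27 growth hormone and sex-biased genes 9 had an unadjusted p under 0.05 against the other times, all higher at ZT16, and of 37 drug metabolism genes 10 did, all higher too. Over all tested genes 7.15% had such an unadjusted p. Mup2 read 13.06, 13.24 and 13.25 on chow and 13.47, 13.48 and 13.59 on the ketogenic diet, a rise of 1.26-fold (adjusted p = 0.0265), and departed from the other times by 0.31 ± 0.11 (adjusted p = 0.561). The Mup genes are near-identical copies whose probe sets may share signal, so these members are not independent. Cyp2c50 departed by 0.38 (adjusted p = 0.499), with differences of 0.18 to 0.56 at the other times and 0.74 at ZT16. In neither list did any member pass the adjustment.

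Within a diet, ZT16 stood apart from the other times in more genes on the ketogenic diet than on chow. On the ketogenic diet 796 genes (6.39%) were called, 286 higher at ZT16 (2.29%) and 510 lower (4.09%), and on chow 141 (1.13%), 67 higher (0.538%) and 74 lower (0.594%). These counts leaned on single arrays: 119 without ketogenic ZT16 replicate 5, 351 without ketogenic ZT16 replicate 22 and 384 without replicate 6, and 8 without chow ZT16 replicate 8, 55 without replicate 7, 90 without replicate 9 and 335 without chow ZT8 replicate 12. On the ketogenic diet Rgs16 was lower at ZT16 by 1.77 ± 0.43 (adjusted p = 0.015) and Ulk1 by 0.37 ± 0.08 (adjusted p = 0.00597), while Dnajb9 was higher by 0.54 ± 0.10 (adjusted p = 0.003). On chow the values for these 3 genes were -0.61, 0.02 and 0.08 (adjusted p = 0.554, 0.928 and 0.782). The difference between the diets in this respect is the contrast above, by which none of them was called.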

How the data were processed

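Liver RNA was hybridised to 1-colour Affymetrix arrays, 1 sample per array. The deposited values are probe set intensities on a linear scale that the authors made with Affymetrix Expression Console 1.1.1 and PLIER, per the submitters' processing notes. The deposited table also holds the authors' Cyber-T p-values. At ZT16, 473 tested genes passed there in all after Benjamini-Hochberg adjustment, and 436 of the 1552 limma calls it lists also passed. No genome build was needed for the levels. The number of arrays, 3 per group, limits the precision.

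Intensities were taken as log2(intensity + 16), and each gene was read from its probe set with the highest mean. Of 35556 probe sets 23163 were named, 1374 of them from the authors' workbook. Genes below the 40th percentile of mean level were left out, which kept 12463. limma 3.58.1 in R 4.3.3 fitted the 12 liver groups together (two-sided, Benjamini-Hochberg over all tested genes, threshold 0.05), with contrasts for the diet at each time, for ZT16 against the mean of the other 5 times and against each of them, and for ZT16 within each diet. The fit was tested on simulated data. Alternatives were other scalings, filters, pseudocounts, probe set rules, a minimum fold, the 6 ZT16 arrays alone, a replicate block, and leaving out each liver array in turn.

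Named genes were the 12 largest rises and 12 largest falls among called genes, the 3 members of each list with the smallest adjusted p, the called clock genes, all lipogenesis and interferon members, and called genes of opposite sign to the mean of the other times. Predicted genes and clone-like names were skipped, and other genes are said to be chosen after their values were seen. The members and lists were chosen with earlier results of these data known. Promoters came from a RefSeq table (build GRCm38.p6). Some genes are not reported here.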

Additional observations from a re-analysis of the deposited data

Results flagged for a closer look

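In 3 genes described here the diet difference at ZT16 differed from that at another single time point by the test of the difference itself. For Ces1d, ZT16 exceeded ZT4 by 0.58 on the log2 scale. For Vangl1 ZT16 was below ZT8, by -0.52, and for Trim30a below ZT20, by -1.38. Under other settings and with single arrays left out, Ces1d lost this call in 28 of 46 fits, Trim30a in 7 of 46 and Vangl1 in 8 of 45, and no direction changed. Groups of 3 arrays were not tested for outlying samples.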

How the results depend on the processing

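No named gene that was called changed direction under the alternatives run. Of the 39 named genes not called, 7 changed sign in at least 1 of them, such as Fads2 (-0.04 without chow replicate 8) and Parp14 (-0.01 without ketogenic replicate 6). With a minimum fold of 1.5 the calls at ZT16 were 281 (131 higher, 150 lower), with 15 PPARA targets and 7 drug metabolism genes higher, 26 genes called within chow and 64 within the ketogenic diet. Median centring gave 336 higher and 1616 lower, 9 drug metabolism genes and 401 calls within the ketogenic diet, and no filter on low values gave 492 there. The 6 ZT16 arrays alone gave 750 calls (306 higher, 444 lower), 4 interferon genes and 8 drug metabolism genes. Leaving out or exchanging the 2 chow arrays of discordant clock time gave 287 or 274 calls within chow. With arrays left out in turn, calls ran from 813 to 1835, higher from 315 to 754, lower from 498 to 1081, PPARA targets from 18 to 30, lipogenesis from 15 to 18, interferon from 8 to 25, drug metabolism from 8 to 18, glycolysis from 11 to 13, ZT16 against the other times from 0 to 4, within chow from 8 to 335 and within the ketogenic diet from 119 to 1046. The replicate block gave 1579 calls with a consensus correlation of 0.059; the ZT16 groups share no replicate number. Of 107 called named genes, 46 lost the call without 1 of the ZT16 arrays. The cause of these changes was not tested. Between 7.26% and 9.43% of values per array lay below 16, where differences are compressed.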
